A study of Mus musculus with 4 samples.

Results

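The integrated stress response and the unfolded protein response were followed through 44 genes in 2 mouse colorectal cancer lines, CT26 and MC38, after knockdown of Aurora-A, the mitotic kinase encoded by Aurka. The genes were taken by symbol from the 51905 genes of the deposited tables, 43 under the symbol asked for and Mars1 under its older symbol Mars. They comprise Atf4 with the endoplasmic reticulum (ER) stress sensors Atf6, Eif2ak3 and Ern1 and with Xbp1 (5 genes), targets of ATF4 (24 genes), tRNA synthetases (6 genes) and ER folding and degradation factors (9 genes). Cells of either line carried a lentiviral short hairpin RNA, either the control hairpin to GFP (shGFP) or 1 to mouse aurka (shmaurka-1), and all 4 cultures had passed through puromycin selection after infection and were collected 48 h after seeding. One library was made per condition, from a single hairpin against Aurka, so a difference within a line has no replicate behind it. CT26 is labelled as a fibroblast and was grown in RPMI-1640, whereas MC38 is labelled as an epithelial cell and was grown in high glucose DMEM with added non-essential amino acids and HEPES, and both lines are labelled wild type.

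The 4 libraries held between 22207768 and 23752269 fragments, the deepest 1.07 times the shallowest. Aurka, the targeted gene, had 5724 fragments in the CT26 control and 1093 in the CT26 knockdown, and 2300 and 413 in the corresponding MC38 libraries. Among 8 epithelial markers, Epcam had at most 1 fragment and Cdh1 at most 6 in every library, MC38 included. Krt18 had 1516 and 1485 fragments in CT26 shGFP and shmaurka-1 and 12 and 14 in MC38. Krt20 had 434 and 205 in CT26 and at most 2 in MC38. Vil1, whose locus holds other coding genes, went the other way, with 0 in both CT26 libraries and 38 and 29 in MC38. Krt8 had 13 to 22 in the 4 libraries. Krt19 had 6 and 13 in CT26 and 1 and 2 in MC38, and Cdx2 14 and 3 in CT26 and 0 in MC38. Of 8 fibroblast markers, Col1a1 had between 2127 and 2920 fragments in all 4 libraries, Pdgfrb 1312 to 2247, Col3a1 571 to 1430, Pdgfra 186 to 770, Dcn 113 to 204, Lum 22 to 45 and Thy1 at most 5. Col1a2 had 12156 and 11459 fragments in CT26 and 1426 and 1396 in MC38. The 7 that could be compared had median log2 differences of -0.34 in CT26 and -0.08 in MC38 with shmaurka-1, 5 of them lower in both lines, Pdgfrb higher in both (0.12 and 0.34) and none called, and their part in the results was not tested. Among immune markers, Ptprc, Cd3e and Nkg7 had at most 3 fragments in any library, while Cd68 had 79 to 145, Lyz2 31 to 98 and Csf1r 9 to 39.

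In the integrated stress response, kinases that sense amino acid shortage, ER stress, double-stranded RNA or other stress phosphorylate the translation factor eIF2, which slows protein synthesis in general and favors translation of the mRNA of Atf4. ATF4 is a transcription factor that raises genes for amino acid synthesis, uptake and tRNA charging through an element in their promoters, the C/EBP-ATF response element (CARE). In the unfolded protein response, PERK (encoded by Eif2ak3) feeds into the same branch, while IRE1 (encoded by Ern1) splices the Xbp1 mRNA and ATF6 moves from the ER to the Golgi, where cleavage releases it. The transcription factors made by the latter branches raise ER chaperones through the ER stress response element (ERSE) and its variant ERSE-II. Translation of Atf4 and splicing of Xbp1 are not seen in counts per gene, so the targets are the part of the response that these libraries can show.

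The elements are shown because ATF4 and the ER stress factors are known to act through them, and most members with a window (24 of 37) hold none of the searched letters. RefSeq promoter windows (GRCm38.p6, 250 bases before to 50 after each start) were found for 37 of the 44 genes. CARE was searched as TGATGNAA, ERSE as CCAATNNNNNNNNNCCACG and ERSE-II as ATTGGNCCACG, on both strands. CARE was present in 11 of the 37 genes, against 4.51% of all 27025 genes with a window. They were Aars, Asns, Atf3, Chac1, Fgf21, Gars, Herpud1, Pycr1, Slc7a11, Trib3 and Vldlr. ERSE was present in Creld2 and Pdia6 (0.137% of all genes) and ERSE-II in Herpud1 (0.0444% of all genes). ERSE and ERSE-II share letters, but none of the members matched both. A match is a description of the letters and not evidence of binding. The stretches below lie upstream of the start and are read 5′ to 3′ on the strand of the gene, with the element in capitals.
Chac1 CARE (chr2:119351034-119351071, plus strand): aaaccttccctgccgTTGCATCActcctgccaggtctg
Atf3 CARE (chr1:191183421-191183458, minus strand): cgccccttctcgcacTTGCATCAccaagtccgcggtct
Asns CARE (chr6:7693210-7693247, minus strand): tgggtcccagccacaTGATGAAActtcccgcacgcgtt
Slc7a11, CARE on both strands (chr3:50443638-50443694, minus strand): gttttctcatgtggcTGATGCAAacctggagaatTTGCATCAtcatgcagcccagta
Pycr1 CARE (chr11:120643829-120643866, minus strand): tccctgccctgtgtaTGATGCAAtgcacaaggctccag
Herpud1 CARE (chr8:94386302-94386339, plus strand): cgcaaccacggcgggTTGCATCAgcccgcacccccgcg
Herpud1 ERSE-II (chr8:94386362-94386402, plus strand): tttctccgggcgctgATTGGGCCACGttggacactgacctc
Creld2 ERSE (chr15:88819505-88819553, plus strand): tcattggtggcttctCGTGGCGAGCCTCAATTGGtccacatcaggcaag
Pdia6 ERSE (chr12:17266476-17266524, plus strand): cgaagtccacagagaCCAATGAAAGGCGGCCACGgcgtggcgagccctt

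To ask whether Aurora-A knockdown moved the response, each shmaurka-1 library was compared with the shGFP library of its line. Counts were scaled by TMM, 1 count was added to each library, and genes averaging 10 counts or more in CT26 and in MC38 were compared, 11928 genes in all and 43 of the 44 members. None of the 43 was more than 1.5-fold higher or below 0.6-fold in either line, the thresholds of the study. In CT26, 3.20% of all genes compared were above 1.5-fold and 2.58% below 0.6-fold, and in MC38 2.47% and 1.03%. The changes of the members were small and mostly upward. In CT26, 34 of the 43 were higher in the shmaurka-1 library at any fold (49.1% of all genes were), the median being 0.16 on the log2 scale against -0.01 for all genes. In MC38, 27 of the 43 were higher (49.9% of all genes were), with a median of 0.06 against 0.00. In both lines together 21 members were higher, against 28.0% of all genes, and 3 (Slc7a11, Mars and Herpud1) were lower, of which Mars and Herpud1 were higher in CT26 when taken from FPKM (0.04 and 0.01). Intervals at the 95% level, exact and binomial, cover counting error only and compare a pair of libraries rather than conditions. These counting intervals lay above 0 for 28 members in CT26 (22.1% of all genes) and below 0 for 4 (21.1%), and in MC38 above 0 for 23 (22.7%) and below 0 for 12 (22.3%). Such intervals narrow with depth, and 39 of the 43 members averaged at least 1000 fragments. Direction differed between the lines for 19 members, 13 of them higher in CT26 and lower in MC38 (21.2% of all genes) and 6 the reverse (21.9%). In 12 of the 43 members the counting intervals lay on opposite sides of 0 in the lines, against 7.44% of all genes.

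**Figure D1:**
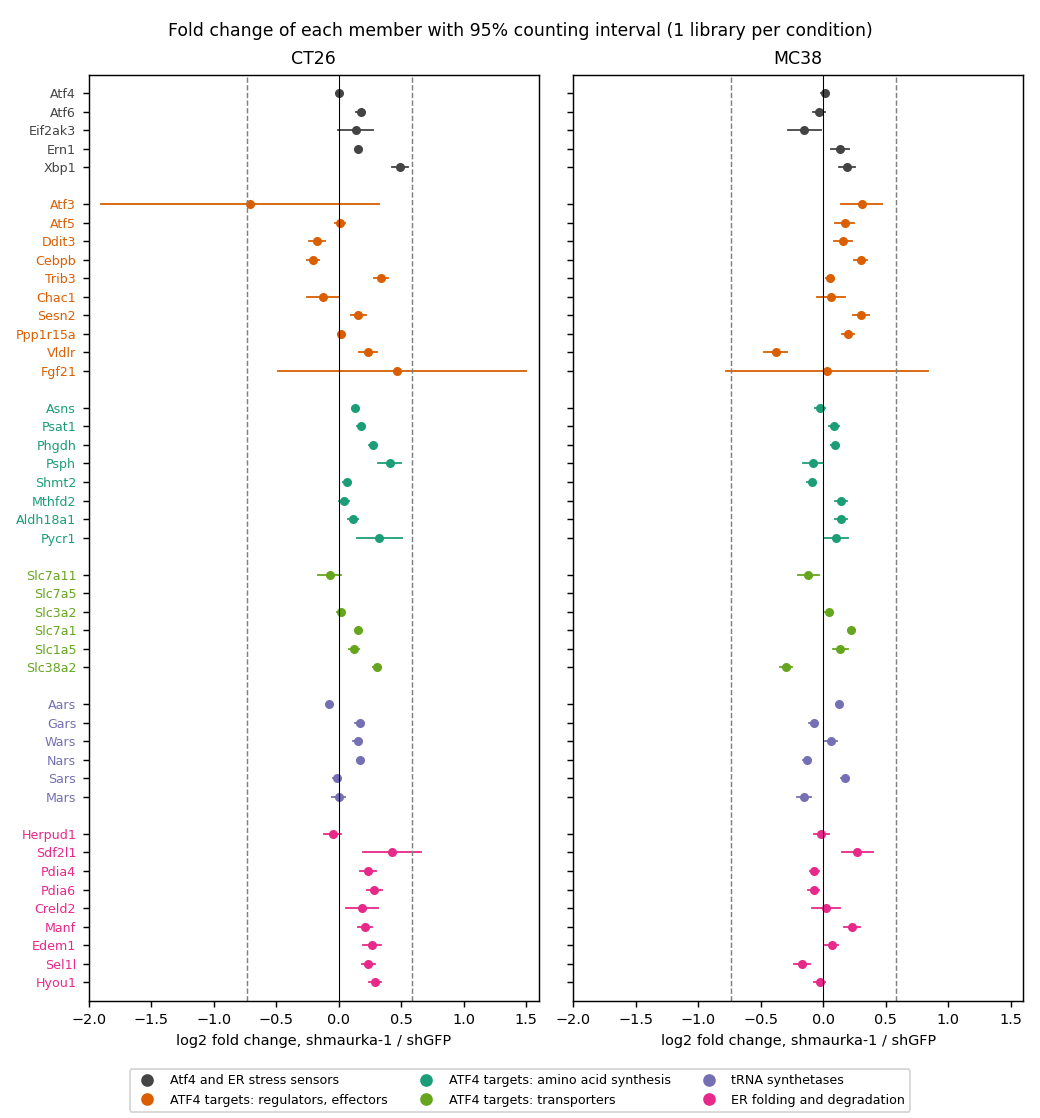
Log2 fold change of each member (shmaurka-1 over shGFP) in CT26 on the left and MC38 on the right, colored by role. Points are the fold changes, bars are exact 95% counting intervals, and dashed lines mark 1.5-fold and 0.6-fold, which no member passed. Slc7a5 is not drawn.

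A change shared by CT26 and MC38 was sought with the quasi-likelihood test of edgeR, the line being entered as a block. The spread comes from how far the knockdown effects of the lines differ over all genes, and not from repeated cultures. Each gene takes it from that trend, so its SE and p-value do not measure how well the lines agree on that gene. In bulk libraries, fewer cells of a kind and less RNA per cell cannot be told apart. Among all genes compared, 1.67% were called higher and 1.12% lower at an adjusted p under 0.05. The higher calls were 59.8% of the 333 calls, and 49.1% of 320 with total-count scaling. Of the 43 members, 1 (Xbp1) was called higher and 0 lower. At an unadjusted p under 0.05, 7 members were higher (Xbp1, Trib3, Sesn2, Phgdh, Slc7a1, Sdf2l1 and Manf) and 0 lower, where 6.56% of all genes were higher and 5.76% lower. The members at that level were 4 with total-count scaling, 1 with DESeq2 and 0 without the block. DESeq2's Wald test called none and limma-voom called 1. Where no other statement is made, a difference named below did not pass this test.

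Among the initiators of the response, Xbp1 rose and Atf4 kept nearly the same count. Xbp1, the transcription factor whose mRNA IRE1 splices, had 3617 fragments in the CT26 control and 4668 in the CT26 knockdown, 0.49 higher on the log2 scale (counting interval from 0.43 up to 0.55). In MC38 it had 3831 and 4294 fragments, 0.19 higher on that scale (counting interval from 0.13 up to 0.26). The shmaurka-1 library was the higher one in both lines, and the common log2 fold change was 0.34 ± 0.10 (SE, adjusted p = 0.0248, 2 of 2 lines). The adjusted p was between 0.0267 and 0.0467 under 5 of the alternatives and lost the threshold with DESeq2 (0.663) and without cell line as a block (1). Xbp1 is alone at its locus in the files.

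Atf4 had 33544 and 30865 fragments in CT26 shGFP and shmaurka-1 and 21543 and 21299 in MC38. On the log2 scale the knockdown library differed by 0.00 in CT26 (counting interval from -0.02 up to 0.02) and by 0.01 in MC38 (from -0.01 up to 0.04), and both intervals included 0. In FPKM the CT26 value was 0.05. Ern1, which encodes the sensor IRE1, was higher in both shmaurka-1 libraries, with 17503 and 17943 fragments in CT26 (log2 fold change 0.16) and 3093 and 3333 in MC38 (0.14). Atf6, the sensor cleaved in the Golgi, had 13919 and 14452 fragments in CT26 (0.17) and 6891 and 6607 in MC38 (-0.03, with a 95% interval that included 0). Eif2ak3 (PERK) had the fewest fragments of this group, 818 and 826 in CT26 (0.13) and 1019 and 900 in MC38 (-0.15). The adjusted p of the common effect was 0.563 for Ern1, 0.849 for Atf6 and 0.995 for Eif2ak3.

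The 24 targets of ATF4 had a median of 0.12 in CT26 (log2 scale), where 18 of the 23 compared were higher, and 0.10 in MC38, where 17 were higher. None was called in either direction by edgeR's quasi-likelihood test. The targets fell into those that regulate the response or act in cell fate, those that make amino acids and those that carry them.

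Of the 10 stress regulators, 5 were higher with shmaurka-1 in both lines and 5 differed in direction between them. Among the former, the CT26 intervals of Atf5, Ppp1r15a and Fgf21 included 0. Ddit3, which encodes CHOP, a transcription factor of the late, proapoptotic phase, had 4265 fragments in the CT26 control and 3475 in the CT26 knockdown (log2 fold change -0.17, interval from -0.24 up to -0.11). In MC38 it had 3052 and 3340 fragments (0.16, interval from 0.09 up to 0.23). Cebpb, a C/EBP transcription factor that can pair with ATF4, had 7405 and 5899 fragments in CT26 (-0.21) and 5582 and 6747 in MC38 (0.30). In FPKM the CT26 difference was nearly absent for Cebpb, at -0.006, and was -0.11 for Ddit3. Chac1, which encodes an enzyme that breaks down glutathione and is a sensitive marker of ATF4 and CHOP, had 1135 and 956 fragments in CT26 (-0.13) and 1274 and 1303 in MC38 (0.06, with a 95% interval that included 0). Each of these 3 genes was lower with shmaurka-1 in CT26 and higher in MC38, and the difference between lines was not tested, there being 1 library per condition. Trib3, a pseudokinase induced by CHOP and ATF4, was higher in both lines instead. It had 4705 and 5470 fragments in CT26 (0.34) and 13925 and 14161 in MC38 (0.05), with an adjusted p of 0.337 for the common effect.

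Sesn2, which encodes a leucine sensor upstream of mTORC1, had 4275 and 4380 fragments in CT26 (0.16) and 3799 and 4588 in MC38 (0.30), with an adjusted p of 0.258. Ppp1r15a (GADD34, the subunit that directs dephosphorylation of eIF2) had log2 fold changes of 0.02 and 0.20, and Atf5, a further transcription factor translated under stress, of 0.01 and 0.17. The CT26 value of Atf5 was -0.01 with total-count scaling. Atf3, a transcription factor induced early in stress, was hardly detected in CT26, with 22 fragments in shGFP and 12 in shmaurka-1, and the 95% interval of its log2 fold change there was -1.90 to 0.32. In MC38 it had 562 and 682 fragments (0.31, interval from 0.15 up to 0.47). Fgf21, which encodes a stress hormone, had between 17 and 28 fragments in each of the 4 libraries, and a change was not detectable at this depth. Vldlr, a lipoprotein receptor raised by ATF4, had 2941 and 3178 fragments in CT26 (0.23) and 2250 and 1694 in MC38 (-0.38, interval from -0.47 up to -0.29), the lowest MC38 value of all members.

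Genes for amino acid synthesis were higher with shmaurka-1 in CT26 throughout, 8 of 8, with a median log2 fold change of 0.16, and in MC38 5 of 8 were higher, with a median of 0.09. None was called. In the serine pathway, Phgdh, its first enzyme, had 15283 and 17008 fragments in CT26 (0.28) and 14896 and 15599 in MC38 (0.10), with an adjusted p of 0.345. Psat1, the second enzyme, had log2 fold changes of 0.18 and 0.09. Psph, the last enzyme, had 1733 and 2115 fragments in CT26 (0.41, interval from 0.32 up to 0.50) and 2667 and 2469 in MC38 (-0.08, interval from -0.162 up to -0.003). The first and second enzymes were thus higher in both shmaurka-1 libraries, while the last was higher in CT26 and lower in MC38, a difference that was not tested.

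Asns, asparagine synthetase and a classical ATF4 target with the CARE printed above, had 29223 and 29441 fragments in CT26 (0.13, interval from 0.11 up to 0.15) and 10975 and 10568 in MC38 (-0.03, interval from -0.06 up to 0.01). Of the mitochondrial one-carbon enzymes, Shmt2 had values of 0.06 (CT26) and -0.09 (MC38) on the log2 scale, and Mthfd2 of 0.04 and 0.14. Of the proline pathway, Aldh18a1 had 0.11 and 0.14, and Pycr1, which had 470 and 542 fragments in CT26 and 1710 and 1799 in MC38, had 0.33 and 0.10.

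Among the amino acid transporters, the 5 that could be compared in both lines had medians of 0.12 in CT26 and 0.04 in MC38, and none was called. Slc7a1, the carrier of cationic amino acids, had 25064 and 25643 fragments in CT26 (0.15) and 17867 and 20492 in MC38 (0.23), with an adjusted p of 0.312. Slc38a2, the adaptive carrier of small neutral amino acids (SNAT2), had 16150 and 18360 fragments in CT26 (0.31, interval from 0.28 up to 0.34) and 7975 and 6356 in MC38 (-0.30, interval from -0.35 up to -0.25). These are near mirror images in size, with the knockdown library higher in CT26 and lower in MC38. Slc1a5, a glutamine carrier, had log2 fold changes of 0.12 and 0.14, and Slc3a2, the heavy chain that partners Slc7a5 and Slc7a11, of 0.02 and 0.04. Slc7a11, the cystine carrier with CARE on both strands, was lower in both shmaurka-1 libraries by count, with 2142 and 1873 fragments in CT26 (-0.07, with a 95% interval that included 0) and 2376 and 2146 in MC38 (-0.12).

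Slc7a5, the leucine carrier, is listed at 0 in both CT26 libraries and had 15457 and 15155 fragments in MC38 (0.00). Its locus in the files is one long stretch (chr8:119910359-124345724) and is shared by 210 genes, none of which is above 0 in either CT26 library. Rpl13, a ribosomal protein gene in that locus, is at 0 in CT26 and at 1369 and 1549 FPKM in MC38, so the CT26 value of Slc7a5 is not read as absence.

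The tRNA synthetases, which charge tRNAs with amino acids, showed no shared direction. Their medians were 0.07 in CT26 and -0.01 in MC38, 3 of 6 were higher in each line, and none was called. Without the synthetases whose locus holds another coding gene the medians were 0.17 and -0.08. Gars (glycine) and Nars (asparagine) were higher with shmaurka-1 in CT26 (0.17 for each) and lower in MC38 (-0.08 and -0.13). Aars (alanine) had 43293 and 37816 fragments in CT26 (-0.07, interval from -0.10 up to -0.06) and 29844 and 31903 in MC38 (0.13, interval from 0.10 up to 0.15), the opposite order, though the CT26 value was -0.03 in FPKM. Sars (serine) had -0.02 and 0.17 (-0.14 and 0.28 in FPKM), Wars (tryptophan), a synthetase also known to be induced by interferon, 0.15 and 0.06, and Mars (methionine) -0.002 and -0.15.

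The ER folding and degradation genes had the highest median of the member groups in CT26 and a median near 0 in MC38. Of 9 genes, 8 were higher with shmaurka-1 in CT26, with a median log2 fold change of 0.24, and 4 of 9 in MC38, with a median of -0.01. None was called by the test common to both lines, and whether the knockdown effect differs between the lines could not be tested. Sdf2l1, a cofactor of the chaperone BiP, had 276 and 341 fragments in CT26 (0.42, interval from 0.19 up to 0.66) and 948 and 1123 in MC38 (0.27, interval from 0.15 up to 0.40), higher in 2 of 2 lines, with a common log2 fold change of 0.34 ± 0.14 (SE, adjusted p = 0.21). Its size was the same as that of Xbp1, with a larger error. Manf, a secreted ER stress factor, was also higher in both lines, with 5379 and 5718 fragments in CT26 (0.21) and 3645 and 4192 in MC38 (0.23), adjusted p = 0.281.

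Of the disulfide isomerases, the members Pdia4 and Pdia6 were higher with shmaurka-1 in CT26 and lower in MC38, whereas Pdia3 (0.19 and 0.09) and P4hb (0.11 and 0.24), outside the members, were higher in both lines. Pdia4 had 3486 and 3768 fragments in CT26 (0.23) and 10852 and 10141 in MC38 (-0.07), and Pdia6 4584 and 5140 in CT26 (0.29) and 8156 and 7582 in MC38 (-0.08, or -0.02 in FPKM). Hyou1, a large ER chaperone of the Hsp70 class, had 6746 and 7601 fragments in CT26 (0.29) and 8506 and 8178 in MC38 (-0.03, with a 95% interval that included 0). Sel1l, the scaffold of the ER degradation ligase, had 5946 and 6440 in CT26 (0.24) and 4297 and 3739 in MC38 (-0.17). Edem1, which directs glycoproteins to degradation, had log2 fold changes of 0.26 and 0.07, and Creld2, an ER stress-induced factor with the ERSE printed above, 0.19 and 0.02. Herpud1, whose window holds CARE and ERSE-II, had 3852 and 3425 fragments in CT26 and 4756 and 4618 in MC38, and its log2 fold changes of -0.05 and -0.01 had 95% intervals that included 0. Of the 11 genes with CARE, 6 were higher in CT26 and 6 in MC38, 3 of which are shared. Both genes with ERSE were higher in CT26, and 1 of them (Creld2) in MC38.

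**Figure D2:**
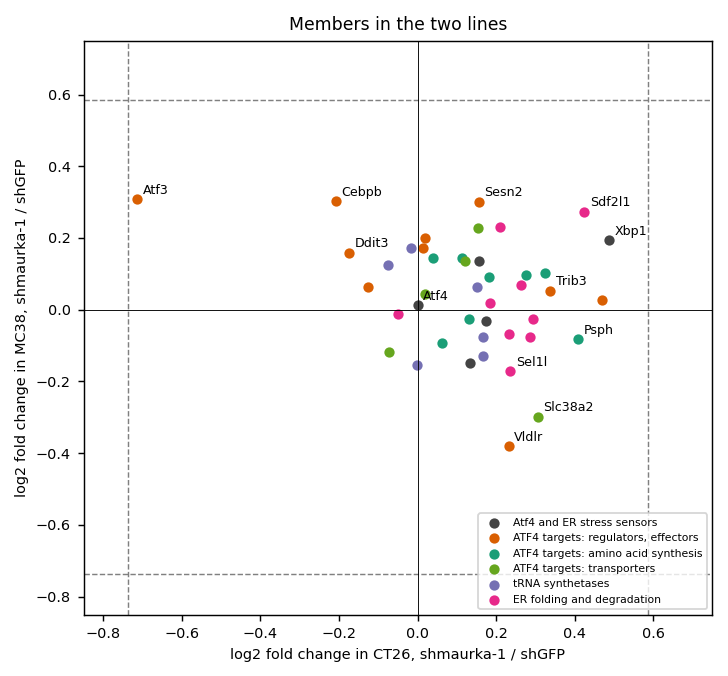
Each point is a member, with its log2 fold change in CT26 on the x axis and in MC38 on the y axis (shmaurka-1 over shGFP), colored by role. Dashed lines mark 1.5-fold and 0.6-fold. 13 members were higher in CT26 and lower in MC38 (21.2% of all genes were), such as Slc38a2, Vldlr and Psph. Another 6 were lower in CT26 and higher in MC38 (21.9% of all genes were), such as Cebpb and Ddit3.

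Further genes of the same pathways came from a list of 82 genes, 79 of which could be compared. None passed the fold thresholds in either line, and 2 were called, both higher, where 1.67% of all genes were called higher and 1.12% lower. Gadd45a, a growth arrest gene induced by ATF4 and by p53, rose in CT26, with 10230 and 13908 fragments (0.56), and in MC38, with 5760 and 7448 (0.40), with a common log2 fold change of 0.48 ± 0.09 (SE, adjusted p = 4.52e-05). Eprs, the synthetase for glutamate and proline, rose in CT26, with 20985 and 25737 fragments (0.41), and in MC38, with 28720 and 32340 (0.20), with a common value of 0.31 ± 0.09 (SE, adjusted p = 0.0198). Neither call was kept without cell line as a block, where 0 of all genes were called. Hspa5, which encodes BiP, the chaperone that holds the ER sensors inactive, had 70926 and 78519 fragments in CT26 (0.27) and 33059 and 34949 in MC38 (0.11), with an adjusted p of 0.283.

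Group by group, 24 further ER folding genes had medians of 0.11 in CT26 and 0.06 in MC38, against 0.24 and -0.01 for the 9 members. The 14 further cytosolic synthetases had medians of 0.14 and 0.05, and 17 mitochondrial synthetases, which serve the organelle and are not part of the ATF4 program, 0.05 and 0.00. The 10 genes of the eIF2 kinases, eIF2 and its exchange factor, Ppp1r15b being counted with them, had 0.03 and 0.07. The 14 further ATF4 targets had 0.23 and 0.13. No gene of any of these groups was called lower, as were 1.12% of all genes, a share at which few calls would fall in groups of this size.

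Levels between the lines were compared through the line coefficient of the same edgeR fit, with knockdown as a block. Each line had a control and a knockdown library, with no repeated culture. The spread came from the trend over all genes, so the SE and p-values below do not measure variation between cultures of a line. Among all genes compared, 36.7% were called higher in MC38 and 36.6% higher in CT26. Of the 43 members, 27 were called higher in CT26 and 7 higher in MC38, so that calls between lines were common among members as among all genes. With total-count scaling, which moves the median of all genes by 0.29 on the log2 scale toward MC38, the members called were 21 and 12. With the block left out, 25 members were called higher in CT26 and 7 higher in MC38. The adjusted p-values of Atf4, Asns, Ern1 and Atf3 were then far larger but stayed under 0.05. Line and culture medium cannot be told apart, since each line had its own medium.

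Most of the calls toward CT26 were in Atf4 and its metabolic targets and in the synthetases. All 6 synthetases were called higher in CT26, as were 6 of the 8 synthesis genes and 4 of the 5 initiators. With total-count scaling these were 4, 5 and 3, the calls of Gars, Mars, Phgdh and Xbp1 being lost, and the calls of Cebpb and Sesn2 among the regulators were lost too. The call of Gars was not kept with DESeq2 (adjusted p = 0.16) or without the block (0.103), where the call of Xbp1 was lost too (0.0943), and the Gars sign turned with total-count scaling, from -0.20 to 0.09. In FPKM, a level per transcript length, Atf4 was at 894 and 927 in CT26 shGFP and shmaurka-1 and at 481 and 482 in MC38, and the edgeR coefficient on scaled counts was -0.87 ± 0.09 (MC38 minus CT26, SE, adjusted p = 7.03e-23). Atf4 had the highest mean FPKM of all members in both lines. Asns was close behind it in CT26, at 844 and 926 FPKM, and stood at 262 and 258 in MC38 (edgeR coefficient -1.73 ± 0.09, SE). The libraries of a line lay near each other and those of different lines did not overlap for either gene.

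By that coefficient (log2 scale, MC38 minus CT26), the largest differences toward CT26 were those of Ern1, Ppp1r15a, Atf5, Asns and Slc1a5. Ern1 was at 135 and 145 FPKM in CT26 and at 19.4 and 21.6 in MC38, with an edgeR coefficient of -2.75 ± 0.10 (SE, adjusted p = 6.06e-169). Ppp1r15a had a difference of -2.44, Atf5 of -2.15 and Slc1a5 of -1.565, each with the CT26 libraries above those of MC38. The loci of Ppp1r15a and Atf5 each hold 4 other coding genes, and their values are uncertain for that reason.

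Toward MC38 the largest differences were those of Atf3, Pycr1, Sdf2l1, Pdia4 and Trib3. Atf3 was at 0.452 and 0.263 FPKM in CT26 shGFP and shmaurka-1 and at 9.17 and 11.3 in MC38, with an edgeR coefficient of 4.92 ± 0.23 (SE, adjusted p = 1.74e-96), the largest of the members compared. Pycr1 had a difference of 1.51, Sdf2l1 of 1.46, Pdia4 of 1.25 and Trib3 of 1.18. Trib3 stood at 106 and 142 FPKM in CT26 and at 263 and 274 in MC38, opposite to Ddit3, which was at 172 and 159 in CT26 and at 99.3 and 110 in MC38. ER folding genes were split, with 4 of 9 called higher in MC38 (Sdf2l1, Pdia4, Pdia6 and Edem1) and 2 higher in CT26 (Manf and Sel1l), while Herpud1, Creld2 and Hyou1 were not called. With total-count scaling these 3 were called as well, which made 7 of 9 higher in MC38. Chac1, Slc7a11, Slc3a2, Psph, Eif2ak3 and Fgf21 were not called either, with differences between -0.13 and 0.22, though Chac1 and Psph were called higher in MC38 with total-count scaling.

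**Figure D3:**
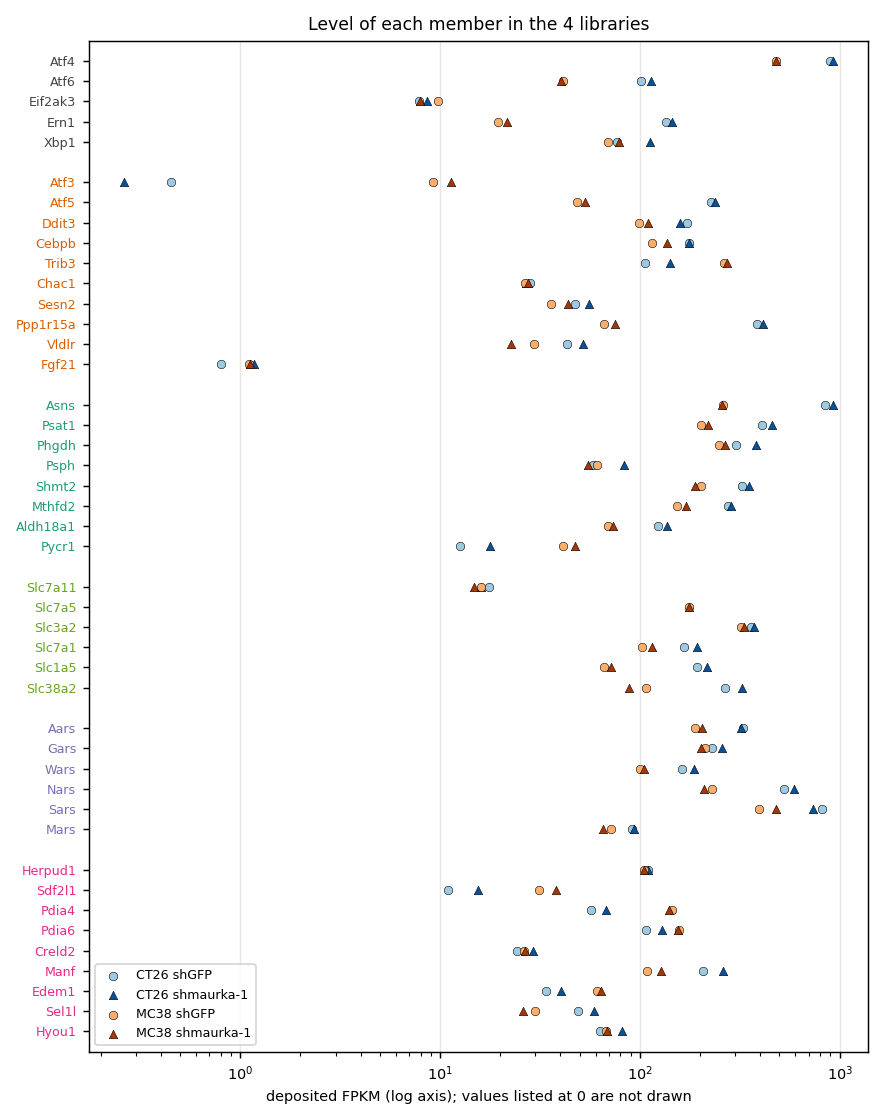
Deposited FPKM of each member in each of the 4 libraries on a log axis, with circles for shGFP and triangles for shmaurka-1, blue for CT26 and orange for MC38. Points of a line lie close together, and the lines are apart for Ern1, Atf3, Ppp1r15a, Atf5 and Asns. Slc7a5 has no CT26 points because it is listed at 0 there.

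**Figure D4:**
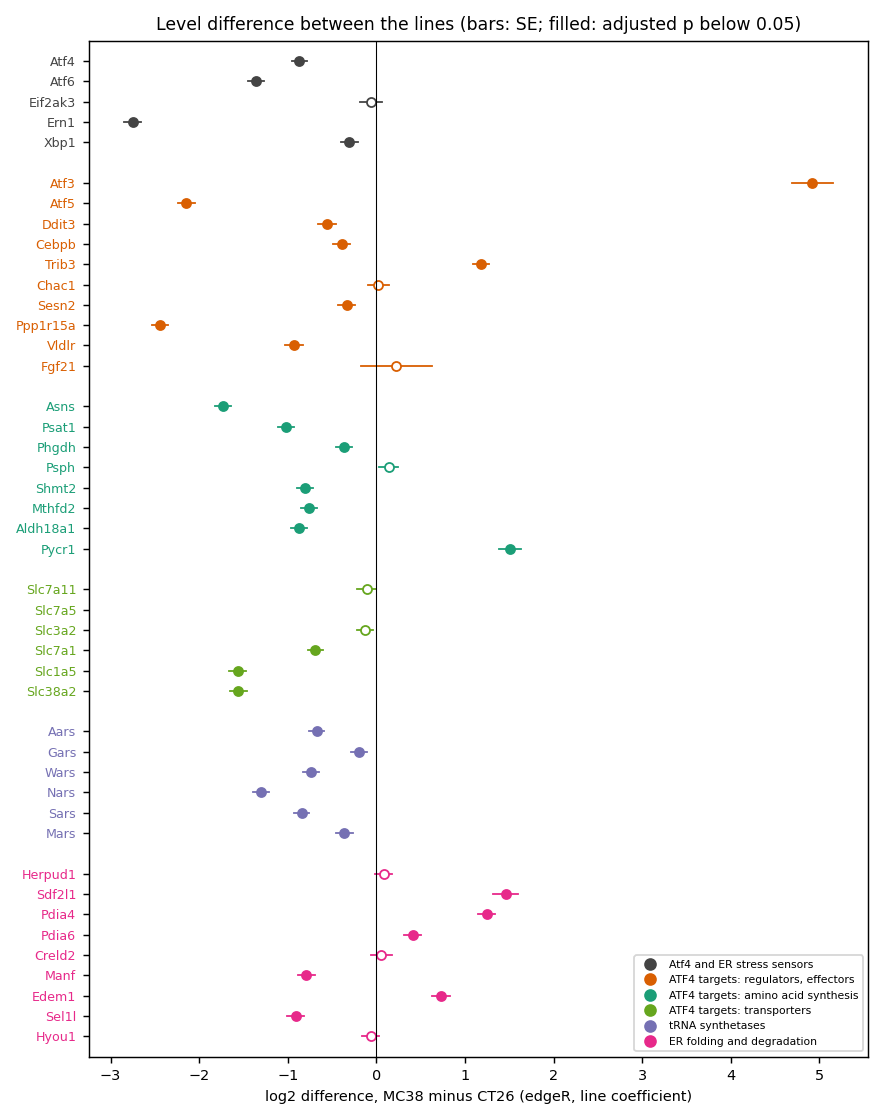
Log2 difference in level between the lines (MC38 minus CT26) for each member, with SE bars from the edgeR fit and filled points for an adjusted p under 0.05. All 6 tRNA synthetases lie on the CT26 side with TMM scaling, and Atf3, at 4.92, lies farthest toward MC38.

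Of the 44 members, 21 were alone at their locus in the files and 12 shared it with at least 1 other protein-coding gene, among them Ddit3 with Mars, Psph, Shmt2, Cebpb, Aars, Wars, Pdia6 and Manf. Libraries were strand-specific, but whether the counting used the strand is not given in the sources used here, so the values of these genes are uncertain. Without them the median log2 fold change of the members compared was 0.17 in CT26 and 0.05 in MC38.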

How the data were processed

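RNA of 4 cultures (CT26 and MC38, shGFP or shmaurka-1) was sequenced as strand-specific libraries. The submitters' notes name Trimmomatic 0.36, HISAT2, Cufflinks 2.2.1 and Cuffdiff. They give GRCm39, but 99.8% of 18221 genes alone at their locus overlapped their namesake in GRCm38.p6 and 9.55% in GRCm39, so GRCm38 coordinates are printed. The authors deposited estimated counts, scaled between libraries, and FPKM values. Of the nonzero counts, 97.1% to 97.7% were whole multiples of 1 step per library within 0.05, and fragments are counts divided by that step.

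Fold changes, the filter and the tests are given with the results. Counts were rounded for the models (edgeR 4.0.16, DESeq2 1.42.0 and limma 3.58.1 in R 4.3.3; Python 3.11.15 with scipy 1.17.1). Adjusted p-values are Benjamini-Hochberg over all 11928 genes. With 1 residual degree of freedom the prior degrees of freedom came out infinite, so every gene takes its spread from the trend over all genes. SE is the log2 fold change over the square root of F. The script was tested on simulated data. The members and lists were chosen with earlier results of these data known. Genes named with values are those called, those past the fold, fixed nodes of the pathway and the 5 largest line differences each way, and others by role. Samples share no replicate number beyond the line, so line was the pairing. Alternatives changed scaling, added count, filter, unit, threshold and model.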

Additional observations from a re-analysis of the deposited data

Results flagged for a closer look

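In 12 of the 43 members compared the knockdown and control libraries differed in opposite directions in the lines. Both 95% counting intervals lay away from 0, against 7.44% of all genes. That contrast has no test, 1 library standing for each condition, and the intervals hold counting error only. They narrow with depth, and 39 of the 43 members averaged at least 1000 fragments. Higher in CT26 and lower in MC38 with shmaurka-1 were Slc38a2 (log2 fold changes 0.305 and -0.298), Vldlr (0.232 and -0.38), Psph (0.408 and -0.082), Sel1l (0.236 and -0.171), Nars (0.167 and -0.13), Pdia6 (0.286 and -0.076), Pdia4 (0.233 and -0.069), Gars (0.166 and -0.076) and Shmt2 (0.063 and -0.092). Lower in CT26 and higher in MC38 were Cebpb (-0.208 and 0.303), Ddit3 (-0.175 and 0.159) and Aars (-0.075 and 0.125). In FPKM the CT26 values of those 3 were -0.006, -0.11 and -0.032, that of Shmt2 was 0.12, and the MC38 value of Pdia6 was -0.019. Cebpb, Ddit3, Aars, Psph, Shmt2 and Pdia6 share their locus with at least 1 other coding gene, so their values are uncertain.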

How the results depend on the processing

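The count of members above 1.5-fold was 0 in both lines under every one of the 8 alternatives, and the count below 0.6-fold was 0 in MC38. In CT26 the latter was 1 with no count added and 1 with a lower threshold of 1/1.5, in both cases Atf3, which had 22 and 12 fragments there. The call of 1 member as higher (Xbp1) became 0 with DESeq2's Wald test and 0 with no replicate block. Over all genes the test called 333, of which 59.8% were higher, against 49.1% of 320 with total-count scaling, 29 genes with DESeq2 and 0 without the block, where 13 had an unadjusted p under 0.05. Members called higher in MC38 than in CT26 numbered 12 with total-count scaling against 7, and that scaling took the share of all line calls toward MC38 from 50.1% to 64.7% and turned Gars to 0.091. Of 684 alternative fold changes of single members, 635 stayed within the counting interval and none that was away from 0 changed sign. With FPKM in place of counts, further values that moved by over 1.5 times were those of Atf5 (0.078), Ppp1r15a (0.099), Manf (0.335), Chac1 (-0.064), Slc7a11 (-0.131), Slc3a2 (0.039) and Pycr1 (0.493) in CT26 and of Eif2ak3 (-0.3), Pycr1 (0.202), Psph (-0.147), Atf4 (0.004), Creld2 (0.008) and Hyou1 (0.008) in MC38. Group medians near 0 in MC38 (Atf4 and the sensors, synthetases, ER folding) took either sign. Leaving out a line leaves 1 pair of libraries and no residual degrees of freedom, so its value is the fold change of the other line. Depth limits Atf3 in CT26 and Fgf21.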
